A study of Mus musculus with 9 samples.

Results

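The genes described here are the D-type cyclins Ccnd1, Ccnd2 and Ccnd3, their partner kinases Cdk4 and Cdk6, the CDK inhibitors Cdkn1a, Cdkn1b, Cdkn2c and Cdkn2d, and the retinoblastoma gene Rb1. These 10 genes were selected from their known function and from earlier results of the same age comparison, so their differences between the ages are given as a description. How many of them passed the test run over all genes is stated once, beside the share of all genes, and is no support for them. They belong to 39179 genes listed in each library, of which 13418 were tested, and all 10 passed the filter on low counts. The study asked what differs around bone capillaries between growing and grown mice. Pieces with 1 capillary and its neighbouring cells were cut with a laser from the ossification front (OF) of frozen femur sections. Many such pieces were collected from each sample, and their RNA was sequenced. Juvenile mice were 4 weeks old (n = 5) and adult mice 12 weeks old (n = 4), with 1 library per sample. All mice, juvenile and adult, were Tg(TIE2GFP)287Sato/J on the C57BL/6 background, and the labels name no other allele and no treatment. In this reporter line the Tie2 promoter drives GFP in endothelial cells, and the fluorescence guided the cutting. The promoter is also active in some blood-forming cells, and each piece held the neighbouring cells of the capillary, so a library is a mixture. In such bulk samples fewer cells of a type and less RNA per cell cannot be told apart.

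A cell leaves G1, the growth phase before DNA synthesis, when a D-type cyclin binds CDK4 or CDK6 and the kinase phosphorylates the retinoblastoma protein RB, which then releases E2F transcription factors. INK4 proteins, here p18 (Cdkn2c) and p19 (Cdkn2d), bind CDK4 and CDK6 directly, whereas CIP/KIP proteins, here p21 (Cdkn1a) and p27 (Cdkn1b), inhibit CDK2 complexes and bind cyclin D complexes. In growing bone the same genes control the division of chondrocytes, osteoblast precursors, endothelial cells and blood progenitors.

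The library totals ran from 4856833 to 8077362 counts on genes. Values are given as CPM, the usual depth-corrected read count, here scaled by TMM to the total of the tested genes. At these depths 3 counts equalled 0.371 to 0.618 CPM, while the lowest count of any of the 10 genes in any library was 15. Since PCR copies 1 molecule into many reads, that limit reflects counting error alone. Xist had more counts than the Y-linked genes together in 7 of 9 libraries, and the exceptions were juvenile 4 and juvenile 5, so such libraries were found at the juvenile age only. The endothelial markers Pecam1 and Cdh5 were present in every library, at 41.7 to 90.3 and 83.7 to 125 CPM in juvenile mice and at 61.6 to 103 and 45.2 to 138 CPM in adult mice. Markers of bone-forming and bone marrow cells were present as well, and their summed levels are given beside some of the genes.

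Of the 10 genes, Ccnd2 and Cdkn1a were called higher in juvenile mice (2 of 10), against 1.99% of all tested genes called in that direction by edgeR's quasi-likelihood test with Benjamini-Hochberg adjustment. The test called 0 of 10 genes higher in adult mice, against 1.89% of all tested genes, and 3.88% of all tested genes were called in either direction. At an unadjusted p under 0.05 stood 4 of the 10 genes, namely Ccnd2, Cdkn1a, Ccnd3 and Cdkn2d, beside 2321 of all 13418 tested genes. DESeq2 called 1 of these 4 members, Ccnd3, higher in adult mice. The CPM of the ages did not overlap for 2 of 10 genes, both with juvenile above adult, while this was so for 5.07% of all tested genes. No member had all adult values above the juvenile ones, an arrangement found in 4.08% of all tested genes, and 9.15% of all tested genes did not overlap in either direction. Because the genes were chosen on this contrast, nothing is read from these counts, which changed with the settings. The median log2 fold change (juvenile over adult) was 0.09 over the 10 genes and -0.0066 over all tested genes.

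**Figure D1:**
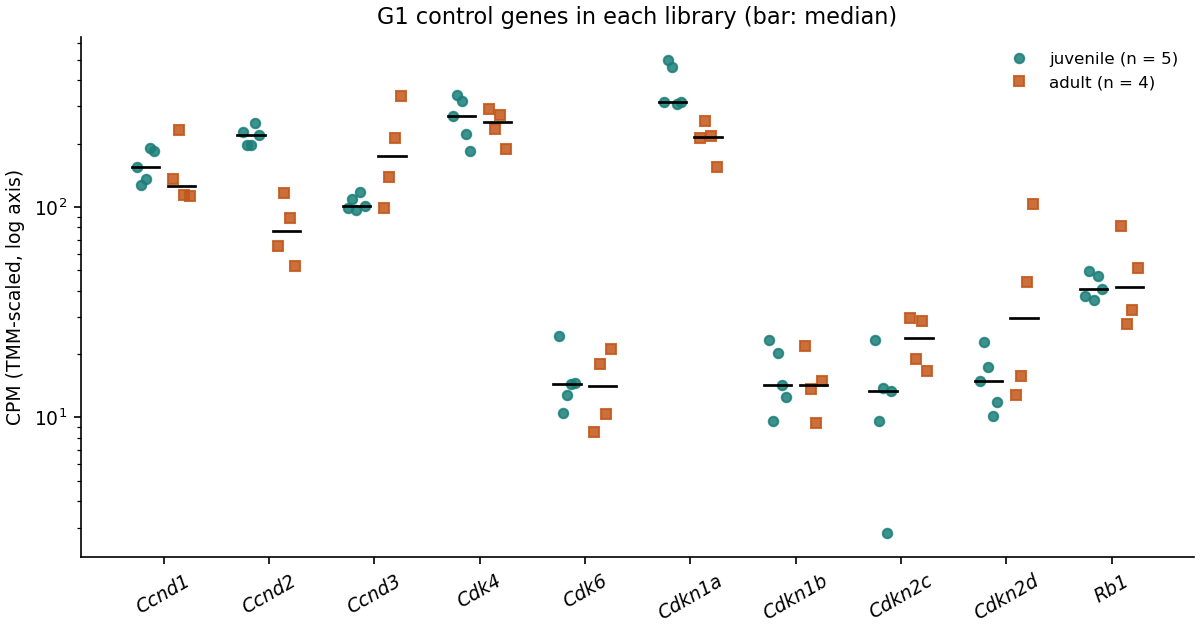
TMM-scaled CPM (log axis) of the 10 genes in each juvenile (circles, n = 5) and adult (squares, n = 4) library, with the median of each age as a bar. All juvenile values of Ccnd2 and Cdkn1a sit above all adult values, while the adult values of Ccnd3 and Cdkn2d spread over a wider range than the juvenile ones.

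The D-type cyclins differed from each other in their pattern between the ages, and gene positions are those of GRCm38. Ccnd1 (ENSMUSG00000070348, chr7:144929931-144939925, minus strand) encodes cyclin D1, the D-type cyclin that growth factor and Wnt signals raise in many cell types. Juvenile libraries 1 to 5 held 154, 128, 136, 189 and 185 CPM of Ccnd1. Adult libraries 1 to 4 held 136, 232, 114 and 112 CPM of Ccnd1. Adult 2 had the highest value of all 9 libraries, the other adult libraries lay below the juvenile median, and the ages overlapped. The means were 158 ± 28.0 CPM (SD, n = 5) and 149 ± 56.5 CPM (SD, n = 4), with a log2 fold change of 0.09 (SE 0.24), which became 0.37 without adult 2. In the same adult library the summed CPM of 7 chondrocyte markers was 4630.3, against 596.3 to 1025.7 in the other adult libraries, and its part in the Ccnd1 level was not tested.

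Ccnd2 (ENSMUSG00000000184, chr6:127125162-127152193, minus strand) encodes cyclin D2, best known from the expansion of germ cells, granulosa cells, pancreatic beta cells and lymphocytes. Its values in juvenile libraries 1 to 5 were 228, 198, 197, 249.7 and 219.8 CPM. In adult libraries 1 to 4 they were 65.1, 116, 88.6 and 52.2 CPM. The juvenile values lay close together, and the lowest of them was above the highest adult value, that of adult 2. The juvenile mean was 218 ± 22.0 CPM (SD, n = 5) and the adult mean 80.6 ± 28.2 CPM (SD, n = 4). This gave a log2 fold change of 1.44 (SE 0.23), or 2.71-fold higher in juvenile mice, the largest difference in that direction among the 10 genes. Leaving out each library in turn gave log2 fold changes of 1.26 to 1.65, and restricting the comparison to the 7 libraries in which Xist outnumbered the Y-linked genes gave 1.37. Over the same libraries the summed CPM of 8 osteoblast markers was 92514.4 to 117497.7 in juvenile and 34537.3 to 51861.8 in adult mice. The edgeR quasi-likelihood test with Benjamini-Hochberg adjustment called 4 of these 8 markers higher in juvenile mice and 1 higher in adult mice. Most of the sum came from the matrix genes Col1a1, with 63485.2 to 82585.4 CPM in juvenile and 23413.3 to 33978.5 CPM in adult libraries, and Ibsp, with 17367.0 to 29750.2 and 6276.9 to 11040.6 CPM. Runx2, Alpl and Pth1r overlapped between the ages, and Bglap (osteocalcin) was the marker called higher in adult mice, with 859.8 to 2421.1 and 2513.6 to 9452.1 CPM. Ibsp, Col1a1, Alpl, Pth1r and Bglap are named after their values were seen. Of the pair listed first, Runx2, a factor of early osteoblasts, had 220.3 to 314 CPM in juvenile and 109 to 239 CPM in adult libraries, and Sp7 (osterix) had 286 to 468 and 119 to 249 CPM. Whether the cells that make these markers had a part in the Ccnd2 difference was not tested.

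Ccnd3 (ENSMUSG00000034165, chr17:47505051-47599691, plus strand) encodes cyclin D3, which serves above all in blood cells, where thymocytes, B cells, granulocytes and erythroid precursors use it. In juvenile libraries 1 to 5 Ccnd3 stood at 99.2, 109, 96.2, 117 and 101 CPM. In adult libraries 1 to 4 it stood at 99.2, 138, 211 and 335 CPM. The juvenile values were nearly the same, whereas adult 1 lay within the juvenile range and adult 2, adult 3 and adult 4 lay above it. The means were 104 ± 8.62 CPM (SD, n = 5) and 196 ± 104 CPM (SD, n = 4), with a log2 fold change of -0.91 (SE 0.29). Adult 4 carried much of this difference, since the log2 fold change was -0.54 without it. It was -1.14 without adult 1.

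Compared per kilobase of exon, the makeup of the D-type cyclin transcripts differed between the ages in its Ccnd2 part. Ccnd2 accounted for 35.5%, 34.7%, 34.5%, 33.1% and 31.6% of the D-type cyclin reads per kilobase in juvenile libraries 1 to 5. In adult libraries 1 to 4 it accounted for 14.7%, 16.0%, 16.3% and 8.21%. The shares of the ages did not overlap, with means of 33.9% ± 1.55 (SD, n = 5) and 13.8% ± 3.79 (SD, n = 4). The Ccnd1 shares overlapped, with means of 48.7% ± 3.08 (SD, n = 5) at the juvenile age and 50.6% ± 14.1 (SD, n = 4) at the adult age. The order of Ccnd1 and Ccnd2 in juvenile mice rests on the length correction, since without it Ccnd2 had 45.4% and Ccnd1 32.7%, and 23.4% of the Ccnd1 exon bases overlap LTO1 on the other strand. Ccnd3 had 17.5% ± 1.94 (SD, n = 5) in juvenile mice and 35.7% ± 16.7 (SD, n = 4) in adult mice. It was the most abundant D-type cyclin in adult 4 with 56.5%. The adult order of Ccnd1 and Ccnd3 rests on the length correction too. In adult 3 they had 24.3 and 24.1 CPM per kilobase, but 114 and 211 CPM without length. The sum of the D-type cyclins was 68.7 ± 8.51 CPM per kilobase (SD, n = 5) at the juvenile age and 62.5 ± 13.0 (SD, n = 4) at the adult age, with values from 60.6 to 80.1 and from 47.1 to 77.4. Thus the summed level overlapped between the ages while the Ccnd2 share did not.

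**Figure D2:**
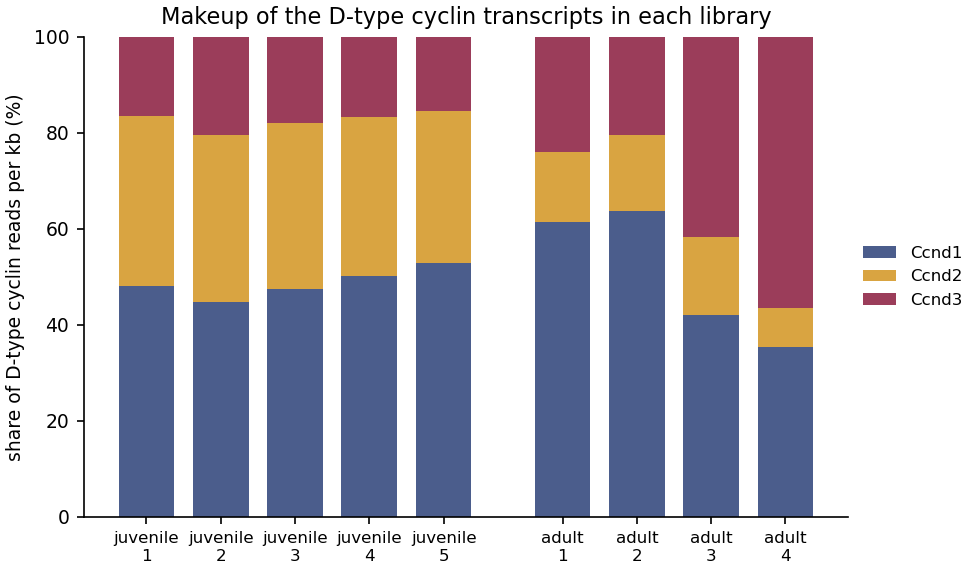
Share (%) of Ccnd1, Ccnd2 and Ccnd3 in the D-type cyclin reads per kilobase of exon, as 1 stacked bar per library. Ccnd2 takes 31.6% to 35.5% in the 5 juvenile libraries and 8.21% to 16.3% in the 4 adult libraries.

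The kinases did not separate the ages. Cdk4 (ENSMUSG00000006728, chr10:127063534-127067920, plus strand) encodes the kinase that pairs with all D-type cyclins. Its values in juvenile libraries 1 to 5 were 269.8, 339, 318, 222 and 184 CPM. In adult libraries 1 to 4 they were 291, 234, 274 and 189 CPM. Both ages spanned nearly the same range, with juvenile 5 and adult 4 lowest. The log2 fold change was 0.11 (SE 0.21), with means of 266 ± 64.4 CPM (SD, n = 5) and 247 ± 45.3 CPM (SD, n = 4). Cdk6 (ENSMUSG00000040274, chr5:3341485-3531008, plus strand) encodes the second kinase of D-type cyclins, which is prominent in blood progenitors. Its values in juvenile libraries 1 to 5 were 24.3, 10.5, 12.8, 14.4 and 14.6 CPM, and juvenile 1 stood highest. In adult libraries 1 to 4 they were 8.55, 17.9, 10.4 and 21.2 CPM, all within or just below the juvenile range. The log2 fold change of Cdk6 was 0.08 (SE 0.47). Per kilobase of exon, Cdk4 made up 98.6% ± 0.568 (SD, n = 5) of the Cdk4 and Cdk6 reads at the juvenile age and 98.5% ± 0.854 (SD, n = 4) at the adult age.

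The window of 250 bases before the RefSeq start of Cdk4 (GRCm38.p6, chr10:127063285-127063534, plus strand) is shown because it held 4 copies of the E-box. This is the motif of MYC and MAX, whose genes are on the list of regulators examined. Capitals mark the motif CACGTG, which reads the same on both strands.
Cdk4 promoter: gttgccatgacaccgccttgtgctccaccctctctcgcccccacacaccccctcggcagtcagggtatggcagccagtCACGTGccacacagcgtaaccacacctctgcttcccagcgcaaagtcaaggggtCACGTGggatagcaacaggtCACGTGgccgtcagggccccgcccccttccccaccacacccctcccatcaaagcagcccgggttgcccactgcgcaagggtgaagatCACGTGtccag
The copy farthest from the start began 172 bases before it, and no copy overlapped another motif searched. At least 1 E-box was found in 6.02% of 32851 mouse promoter windows of the same length, and the share with 4 copies was not computed. The window of Cdk6 also held 1 E-box, which began 220 bases before its start. Myc, named here for the motif and not by the rule for named genes, had 22.0 to 49.3 CPM in juvenile and 25.2 to 59.6 CPM in adult libraries, with a log2 fold change of -0.25 (SE 0.35, edgeR's quasi-likelihood test, Benjamini-Hochberg adjusted p = 0.798). A match is a description of letters and not a bound site.

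Of the CIP/KIP inhibitors, Cdkn1a (ENSMUSG00000023067, chr17:29090976-29100727, plus strand) separated the ages and Cdkn1b did not. Cdkn1a encodes p21, which p53 induces after DNA damage and which also accompanies the exit from division during differentiation. Juvenile libraries 1 to 5 held 316, 496, 464, 309 and 314 CPM of Cdkn1a. Adult libraries 1 to 4 held 212, 255, 216 and 155 CPM of Cdkn1a. Juvenile 2 and juvenile 3 were highest, adult 4 was lowest, and the lowest juvenile value was above the highest adult one. The means were 379.9 ± 92.2 CPM (SD, n = 5) and 209 ± 41.4 CPM (SD, n = 4), and the log2 fold change was 0.86 (SE 0.21), or 1.81-fold higher in juvenile mice. Leaving out each library in turn gave 0.72 to 0.95. The osteoblast marker sum given beside Ccnd2 also separated the ages in the direction of Cdkn1a. Within the juvenile age this sum was lowest in juvenile 2 and juvenile 3, which had the highest Cdkn1a. The part of these markers' cells in the Cdkn1a level was not tested.

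The promoters of Cdkn1a are shown because the p53 response is the best known control of this gene and its genes were among the lists examined. RefSeq gives 2 starts, and capitals mark a pair of CATG with 6 bases between them, the core of a p53 element, which reads the same on both strands.
Cdkn1a start 1 (GRCm38.p6, chr17:29090729-29090978, plus strand): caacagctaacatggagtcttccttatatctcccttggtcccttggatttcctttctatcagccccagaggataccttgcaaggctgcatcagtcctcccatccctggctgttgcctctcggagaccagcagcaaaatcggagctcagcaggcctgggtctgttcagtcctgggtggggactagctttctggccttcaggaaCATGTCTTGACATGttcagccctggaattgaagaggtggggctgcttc
Cdkn1a start 2 (GRCm38.p6, chr17:29093519-29093768, plus strand): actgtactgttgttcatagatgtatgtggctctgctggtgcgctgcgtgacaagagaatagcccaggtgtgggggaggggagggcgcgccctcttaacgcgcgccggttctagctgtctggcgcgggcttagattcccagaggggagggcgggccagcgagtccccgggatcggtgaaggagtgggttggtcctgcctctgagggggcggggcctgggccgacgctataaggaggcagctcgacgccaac
The window of start 1 held the pair 48 bases before the start, an arrangement found in 0.49% of 32851 promoter windows, and it overlapped no other motif searched. The window of start 2 held no such pair and 2 copies of the GC box GGGCGG, counted on both strands, which was present in 32.7% of the windows. The TATA motif TATAAA, present on either strand in 12.4% of the windows, was in neither. Trp53, which encodes p53 and was likewise named for the motif, had 48.3 to 65.1 CPM in juvenile and 12.1 to 66.2 CPM in adult libraries, with a log2 fold change of 0.31 (SE 0.38, edgeR's quasi-likelihood test, Benjamini-Hochberg adjusted p = 0.77).

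Cdkn1b (ENSMUSG00000003031, chr6:134920401-134925513, plus strand) encodes p27, an inhibitor that is high in resting cells and is regulated largely through protein turnover. Its juvenile values, libraries 1 to 5, were 23.2, 9.65, 20.2, 14.3 and 12.5 CPM. Its adult values, libraries 1 to 4, were 21.9, 13.7, 9.40 and 14.9 CPM. The ages covered the same range, and the log2 fold change was 0.09 (SE 0.46). Per kilobase of exon, Cdkn1b made up 3.34% ± 1.40 (SD, n = 5) of the Cdkn1a and Cdkn1b reads at the juvenile age and 5.44% ± 2.10 (SD, n = 4) at the adult age, with overlapping values.

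Both INK4 inhibitors had a higher mean in adult mice, with overlap between the ages. Cdkn2c (ENSMUSG00000028551, chr4:109660876-109667189, minus strand) encodes p18, which restrains the division of blood stem cells and lymphocytes. The 5 juvenile libraries had 23.2, 9.65, 13.8, 2.82 and 13.3 CPM. The 4 adult libraries had 29.8, 18.9, 28.7 and 16.7 CPM. Juvenile 4 was lowest, with 15 counts, and juvenile 1 lay among the adult values. The means were 12.6 ± 7.40 CPM (SD, n = 5) and 23.5 ± 6.71 CPM (SD, n = 4), and the log2 fold change of -0.90 (SE 0.53) ranged from -1.25 without juvenile 1 to -0.65 without juvenile 4.

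Cdkn2d (ENSMUSG00000096472, chr9:21288410-21291407, minus strand) encodes p19, which in blood accompanies the maturation of megakaryocytes and granulocytes. Its level was 14.9, 22.9, 17.4, 10.1 and 11.9 CPM in juvenile libraries 1 to 5. Its level was 12.8, 15.7, 43.8 and 103 CPM in adult libraries 1 to 4. Adult 1 and adult 2 lay within the juvenile range, whereas adult 3 and adult 4 lay above every juvenile library. The means were 15.4 ± 5.02 CPM (SD, n = 5) and 43.8 ± 41.8 CPM (SD, n = 4), so the adult SD was nearly as large as the adult mean. The log2 fold change was -1.50 (SE 0.56), the largest in the adult direction among the 10 genes, and it was -0.66 without adult 4.

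The levels of Ccnd3 and Cdkn2d across the adult libraries were set beside marker sums of other cells. Summed CPM of 24 proliferation genes, which are made in cells that replicate DNA or divide, was 361.3 to 610.8 in juvenile libraries. It was 501.3, 769.4, 1248.2 and 1644.3 in adult libraries 1 to 4, the same order of libraries as for Ccnd3 and Cdkn2d. In the juvenile libraries the orders differed. Juvenile 3 had the highest juvenile proliferation sum (610.8) but the lowest juvenile Ccnd3 (96.2 CPM). Juvenile Cdkn2d was highest in juvenile 2 (22.9 CPM), where the proliferation sum was 424.4. The summed CPM of 7 erythroid markers was 347 to 2434.7 in juvenile libraries and 7220.1, 4128.3, 10051.2 and 33917.0 in adult libraries 1 to 4. All 7 were called higher in adult mice by edgeR's quasi-likelihood test with Benjamini-Hochberg adjustment, whereas limma voom with library quality weights called 5. Of the erythroid markers, Hba-a1 had 152 to 947 CPM in juvenile and 855 to 12374.4 CPM in adult libraries, and Hbb-bs had 149 to 1041.3 and 2326.2 to 17210.3 CPM. The summed CPM of 8 neutrophil markers was 5.98 to 64.0 in juvenile libraries and 4324.4, 93.0, 3485.4 and 3481.9 in adult libraries 1 to 4, and the test called all 8 higher in adult mice, whereas limma voom with library quality weights called 2. S100a8 had 0 to 16.9 CPM in juvenile and 26.9 to 1351 CPM in adult libraries, and S100a9 had 0.426 to 27.4 and 25.9 to 1122 CPM. Adult 4, with the highest Ccnd3 and Cdkn2d, also had the highest erythroid sum and the highest sum of 5 megakaryocyte markers (4210.8, against 62.4 to 604.7 in the other adult libraries). Lists of cells other than blood cells peaked there too. Its sums of adipogenic stroma markers (1143.5) and pericyte markers (635.6) were the highest of all libraries, while its osteoblast sum (34537.3) was the lowest. The part of these cells in the Ccnd3 and Cdkn2d levels was not tested.

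**Figure D3:**
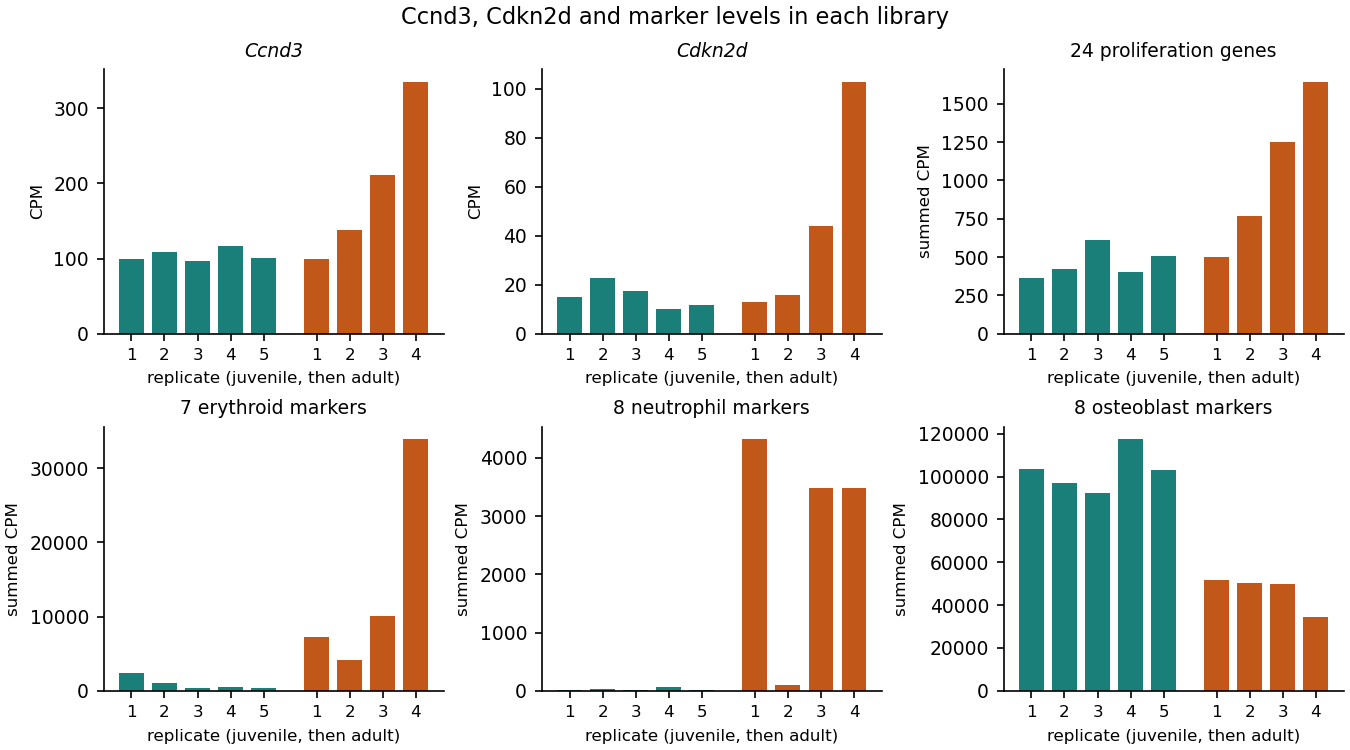
CPM of Ccnd3 and Cdkn2d and summed CPM of the proliferation, erythroid, neutrophil and osteoblast lists, as 1 bar per library from 0, with juvenile replicates 1 to 5 before adult replicates 1 to 4. Adult 4 is highest for Ccnd3, Cdkn2d, the proliferation genes and the erythroid markers, and lowest for the osteoblast markers.

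Rb1 (ENSMUSG00000022105, chr14:73183673-73325822, minus strand) encodes the retinoblastoma protein itself, the substrate of the cyclin D kinases. Rb1 reached 37.7, 49.5, 36.2, 46.9 and 40.7 CPM in juvenile libraries 1 to 5. It reached 80.9, 27.7, 32.3 and 51.4 CPM in adult libraries 1 to 4. Adult 1 was highest and adult 2 lowest, so the juvenile values lay inside the adult range. The log2 fold change was -0.19 (SE 0.32), and it was 0.17 without adult 1.

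**Figure D4:**
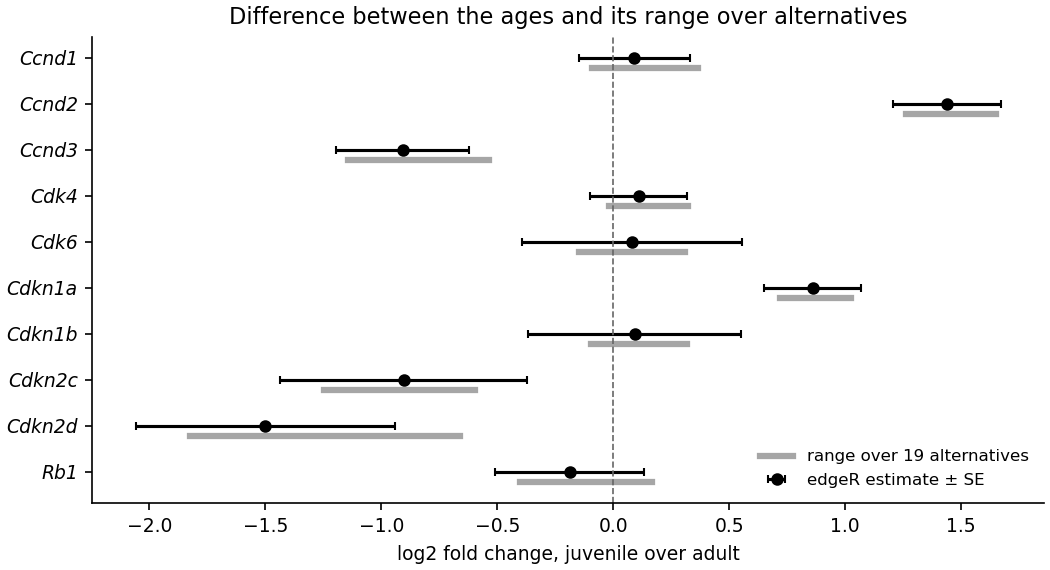
Log2 fold change (juvenile over adult) of the 10 genes from edgeR as points with ± SE, with the range over the 19 alternatives as grey bars. Ccnd2 and Cdkn1a lie above 0 and Ccnd3, Cdkn2c and Cdkn2d below 0 over their whole range, whereas the ranges of the other 5 genes include 0.

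Ordered by their median CPM per kilobase of exon over the 9 libraries, the levels were 86.9 for Cdkn1a, 83.0 for Cdk4, 28.9 for Ccnd1, 20.9 for Ccnd2, 12.4 for Ccnd3, 9.97 for Cdkn2d, 6.77 for Rb1, 6.20 for Cdkn2c, 3.13 for Cdkn1b and 1.03 for Cdk6. Over all libraries, neighbours differed by more than 1 SD of their paired log2 difference for Cdk4 above Ccnd1, Ccnd1 above Ccnd2 and Cdkn1b above Cdk6, each in 9 of 9 libraries. The other neighbours, Cdkn1a and Cdk4 included, did not differ beyond that spread. Within an age, Cdkn1a was above Cdk4 in 5 of 5 juvenile libraries, whereas Cdk4 was above Cdkn1a in 4 of 4 adult libraries. In adult 2 the 2 genes were nearly equal, with 72.0 for Cdk4 and 71.8 for Cdkn1a. Without length the order in adult 2 was turned, with 234 CPM for Cdk4 and 255 CPM for Cdkn1a. Ccnd2 ranked in place 4 of 10 in juvenile and in place 7 of 10 in adult mice. In the juvenile libraries Ccnd2 was above Ccnd3 in 5 of 5, with a mean log2 difference in CPM per kilobase of 0.96 ± 0.13 (SD, n = 5). The size of this difference depends on the exon length used. Merged exons and longest transcript span 9409 and 6330 bp for Ccnd2, and 8775 and 3858 bp for Ccnd3. In the adult libraries the order was turned, with Ccnd3 above Ccnd2 in 4 of 4, at 11.3 against 6.92, 15.8 against 12.4, 24.1 against 9.42 and 38.2 against 5.55 CPM per kilobase in libraries 1 to 4. The 4 inhibitors together had 124.9 ± 28.6 CPM per kilobase (SD, n = 5) at the juvenile age and 98.8 ± 14.9 (SD, n = 4) at the adult age, and these sums overlapped.

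Across the 9 libraries the 10 genes formed few close pairs, described by Pearson's r of log2 CPM. All libraries share 2 ages, cell makeup and depth as sources of variation, so r is also given after centring within each age. Ccnd3 and Cdkn2d had r = 0.92, and 0.89 after centring, while Spearman's rho was 0.45. Both genes were highest in adult 3 and adult 4. In juvenile 4, Ccnd3 had its highest juvenile value and Cdkn2d its lowest. Ccnd2 and Cdkn1a had r = 0.83, which was 0.31 after centring. Cdk4 and Cdkn1a had r = 0.56, and 0.77 after centring, while Ccnd1 and Ccnd2 had 0.47 and 0.75. Ccnd1 and Cdkn2d ran opposite to each other, with r = -0.70 and -0.71.

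The genes most like each member were looked for among 2272 tested genes with a mean count over 500. Ccnd2 was most like Timp1, an inhibitor of matrix metalloproteinases (r = 0.99, n = 9), and Col5a1, a chain of type V collagen (r = 0.98). After centring within the ages these were 0.91 and 0.89. Cdkn1a was most like Pdgfrl, which encodes a protein related to PDGF receptors (r = 0.95), and Sec22b of vesicle transport (r = 0.95). Ccnd3 was most like Bysl, a ribosome assembly factor (r = 0.94), and Cd24a, a surface protein of many immature blood cells (r = 0.94). Cdkn2d was most like Ccnd3 (r = 0.92, Spearman's rho 0.45) and Cd24a (r = 0.89, rho 0.65). Cdk4 was most like Dad1, a subunit of the enzyme that attaches sugars to new proteins, and Ywhae, a 14-3-3 protein (r = 0.94 and 0.92). Cdkn2c was most like Id1, which blocks basic helix-loop-helix factors, and Hnrnpc, an RNA-binding protein (r = 0.92 for both). For the remaining genes r was 0.83 to 0.93, with Dnmt3a and Myo9b beside Cdk6, Ewsr1 and Mapk8ip3 beside Cdkn1b, Sirt7 and Kctd10 beside Rb1, and LTO1 beside Ccnd1, whose other partner, ENSMUSG00000089855, has no entry in the annotation used. By Spearman's rho only 4 of these 20 pairs were again among the closest.

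Some of the members overlap genes of the opposite strand, and the strand setting of the counting is not given in the sources used here, so reads from such stretches cannot be told apart. LTO1 overlaps 1100 bp of Ccnd1 exons (23.4%), Tspan31 overlaps 641 bp of Cdk4 exons (19.7%), Bysl overlaps 361 bp of Ccnd3 exons (4.11%), and Rcbtb2 and Lpar6 overlap 488 and 408 bp of Rb1 exons. Across the 9 libraries LTO1 followed Ccnd1 with r = 0.85, Bysl followed Ccnd3 with r = 0.94 and Tspan31 followed Cdk4 with r = 0.74. Rcbtb2 and Lpar6 followed Rb1 with r = 0.32 and 0.49. Bysl, with 53.3 to 73.4 CPM in juvenile and 43.7 to 150.5 CPM in adult libraries, had a log2 fold change of -0.72 (SE 0.32, edgeR's quasi-likelihood test, Benjamini-Hochberg adjusted p = 0.257). Cdkn1b, Cdkn2c and Cdkn2d overlap no other gene, and the overlaps of Ccnd2 (7.86%), Cdkn1a (7.68%) and Cdk6 (2.63%) are with antisense genes or unclassified transcripts.

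The remaining genes of the pathway were taken from 6 lists of 80 genes, of which 76 were tested, while Cdkn2a, Gdf15, Eda2r and Perp did not pass the filter on low counts. The edgeR quasi-likelihood test with Benjamini-Hochberg adjustment called 0 of 76 higher in juvenile mice and 1 of 76, in the opposite direction, higher in adult mice, against 1.99% and 1.89% of all tested genes. At an unadjusted p under 0.05 stood 13 of the 76, beside 2321 of all 13418 tested genes, so such counts are common. DESeq2 called 2 of the 76 for the juvenile and 6 for the adult direction. The gene called was Cks1b, which helps the SCF ubiquitin ligase to recognise p27 for degradation. Its CPM was 35.4, 34.0, 41.9, 23.3 and 38.2 in juvenile and 69.1, 47.6, 78.2 and 82.7 in adult libraries, so that all adult values were above the juvenile ones. Its log2 fold change was -1.01 (SE 0.26, edgeR's quasi-likelihood test, Benjamini-Hochberg adjusted p = 0.0493), and over 19 alternatives it ranged from -1.17 to -0.89. The call was kept in 6 of 19 alternatives, and it was lost when any library other than adult 2 was left out. Without adult 1, 2 other genes of the lists were called higher in adult mice, and without adult 3, 1 was called higher in juvenile mice.

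Of the 17 tested genes of the RB and E2F list, 0 were called in either direction by edgeR's quasi-likelihood test with Benjamini-Hochberg adjustment and 3 had an unadjusted p under 0.05, while DESeq2 called 3 higher in adult mice and limma voom 0. The median log2 fold change of this list was -0.41, with 13 values below 0 and 4 above, beside a median of -0.0066 over all tested genes. E2f4, a repressor E2F of resting cells, had 19.3 to 47.7 CPM in juvenile and 41.8 to 101 CPM in adult libraries, with a log2 fold change of -1.04 (SE 0.32, edgeR's quasi-likelihood test, Benjamini-Hochberg adjusted p = 0.0927). Rbbp4, a histone-binding partner of RB, had the highest level of the list and a log2 fold change of -0.14 (SE 0.23, edgeR's quasi-likelihood test, Benjamini-Hochberg adjusted p = 0.849). Of 10 tested genes of the cyclin E and CDK2 list, Cks1b was the 1 called, and its other high genes, Cdc37, a chaperone partner of kinases, and Cdk7, the CDK-activating kinase, had log2 fold changes of 0.34 and 0.35. Of the 4 genes listed as other CDK inhibitors, 3 were tested and 0 called, with 1 at an unadjusted p under 0.05. DESeq2 called 1 and limma voom 0. The gene with the small unadjusted p was Cdkn1c (p57), with 9.20 to 24.1 CPM in juvenile and 24.4 to 74.7 CPM in adult libraries, which did not overlap. Its log2 fold change was -1.31 (SE 0.40, edgeR's quasi-likelihood test, Benjamini-Hochberg adjusted p = 0.0913). Cdkn3 had 0 to 4.53 CPM in juvenile and 1.002 to 12.0 CPM in adult libraries.

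Of 8 tested genes of D-type cyclin turnover, 18 tested genes of the p53 response and 20 tested regulators, 0 were called by edgeR's quasi-likelihood test with Benjamini-Hochberg adjustment, and 1, 2 and 3 of them had an unadjusted p under 0.05. DESeq2 called 0 of the turnover genes and 1 each of the p53 genes and regulators, both higher in juvenile mice, and limma voom called 0. The medians of their log2 fold changes were 0.17, 0.23 and 0.17. In the turnover list, Gsk3b, the kinase that marks cyclin D1 for export and degradation, had a log2 fold change of 0.04 (SE 0.27), and Cryab, a chaperone that acts with the FBXO4 ligase, had -0.76 (SE 0.31, edgeR's quasi-likelihood test, Benjamini-Hochberg adjusted p = 0.223). In the p53 list, Plk2, a kinase induced by p53, had 62.5 to 77.3 CPM in juvenile and 21.1 to 54.6 CPM in adult libraries, which did not overlap. Its log2 fold change was 0.96 (SE 0.29, edgeR's quasi-likelihood test, Benjamini-Hochberg adjusted p = 0.0872), while that of Bax, a mediator of cell death, was -0.25 (SE 0.23). Among the regulators, Ctnnb1 (beta-catenin) and Mxd4, a MAX partner, had the highest levels and log2 fold changes of 0.24 (SE 0.16) and 0.32 (SE 0.18).

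In the proliferation list, 2 of 24 tested genes were called higher in adult mice and 0 higher in juvenile mice by edgeR's quasi-likelihood test with Benjamini-Hochberg adjustment. An unadjusted p under 0.05 was found for 10 of the 24, beside 2321 of all 13418 tested genes. DESeq2 called 7 higher in adult and 0 higher in juvenile mice. The median log2 fold change was -1.24, with 23 of 24 values below 0. Mki67, the gene of the Ki-67 antigen of dividing cells, had 20.3, 31.1, 28.5, 24.03 and 42.6 CPM in juvenile libraries. In adult libraries 1 to 4 it had 19.5, 89.7, 177 and 256 CPM, with adult 1 below the juvenile values. Its log2 fold change was -2.21 (SE 0.52, edgeR's quasi-likelihood test, Benjamini-Hochberg adjusted p = 0.0356). Rrm2, which makes deoxynucleotides for DNA synthesis, had 13.6, 16.3, 35.5, 18.96 and 7.63 CPM in juvenile and 36.2, 32.9, 138 and 93.6 CPM in adult libraries. Its log2 fold change was -2.03 (SE 0.50, edgeR's quasi-likelihood test, Benjamini-Hochberg adjusted p = 0.0403), and the values overlapped between juvenile 3 and adult 2. Without juvenile 1, juvenile 2, juvenile 4, adult 3 or adult 4, 0 of 24 genes were called, while 1 was called without juvenile 5, 4 without adult 1 and 3 without adult 2. Mcm7, a subunit of the replicative helicase, had a log2 fold change of -0.55 (SE 0.28, edgeR's quasi-likelihood test, Benjamini-Hochberg adjusted p = 0.332).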

How the data were processed

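RNA was purified from laser-microdissected pieces of the OF, amplified with a Smart-Seq v4 kit for low input and sequenced as 75 bp paired-end reads from 5 juvenile (4 weeks) and 4 adult (12 weeks) mice. The authors deposited 1 table of raw read counts per gene and library, without normalization. Their processing notes name TopHat2, Bowtie2, featureCounts and mm10 (GRCm38), while tool versions, the strand setting and the annotation release of the counting are not given in the sources used here. Symbols and positions came from GENCODE M21 (GRCm38), which held 37693 of the 39179 identifiers (96.2%). Groups came from the labels. The ages were compared over all genes with edgeR 4.0.16 (R 4.3.3), using filterByExpr, TMM scaling and the quasi-likelihood F test with Benjamini-Hochberg adjustment (threshold 0.05). Standard errors are the log2 fold change divided by the square root of F. The p-values set the difference between the ages against the spread between these samples. Values per kilobase used the merged exons of a gene, and log2 CPM used a prior count of 2. Alternatives used limma 3.58.1, DESeq2 1.42.0, other scalings and filters, thinned counts, a replicate block and fewer libraries or genes. Promoter windows of 250 bases came from RefSeq (GRCm38.p6), which matched 7 of the 10 genes and not Ccnd1, Ccnd2 or Rb1. The bases after each start were left out. Figures were drawn with matplotlib 3.10.9.

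The members and lists were chosen with earlier results of these data known. The genes named were the 10 members, in each pathway list the called genes and the 2 genes with the highest mean CPM, for each member the 2 genes with the highest r among genes with a mean count over 500, and the 2 markers listed first. Myc and Trp53 were added outside this rule.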

Additional observations from a re-analysis of the deposited data

Results flagged for a closer look

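In 5 cases 1 library stood apart from the others of its age by Dixon's ratio, all of them sums of marker genes and none a member. With 90 groups looked at, a rate of about 1 in 20 would give 4.5. That figure assumes independent groups, while all groups come from the same libraries, so it decides nothing about these cases. The osteoblast sum of adult 4 was 34537.3 CPM, against 49696.4 to 51861.8 in the other adult libraries. The chondrocyte sum of adult 2 was 4630.3 CPM, against 596.3 to 1025.7, and that of juvenile 3 was 985.3 CPM, against 362.1 to 539.3 in the other juvenile libraries. The sum of adipogenic stroma markers in juvenile 4 was 257.2 CPM, against 356.1 to 394.3. The megakaryocyte sum of adult 4 was 4210.8 CPM, against 62.4 to 604.7. Adult 4 is the library with the highest Ccnd3 and Cdkn2d, and adult 2 the library with the highest Ccnd1.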

How the results depend on the processing

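The log2 fold changes of the 10 members moved by less than 1 SD of the libraries in 190 of 190 recomputations, and Ccnd2, Cdkn1a, Ccnd3, Cdkn2c and Cdkn2d kept their direction in all 19 alternatives. Counts of called genes moved more, and the cause was not tested. Over all tested genes, 267 were called in the juvenile and 253 in the adult direction. DESeq2 called 720 and 772, and the 7 libraries in which Xist outnumbered the Y-linked genes gave 42 and 31. Leaving out each library in turn gave 145 to 306 and 117 to 345, with 145 to 163 in the juvenile direction without juvenile 2, 3, 4 or 5 and 117 to 146 in the adult direction without juvenile 3, 4 or 5. The count of 2 called members is no support, since they were chosen on this contrast. Of the members, 1 was called higher in juvenile mice with limma voom and 0 with the 7 libraries, and 1 to 2 with each library left out. The call was kept in 17 of 19 alternatives for Ccnd2 and in 8 of 19 for Cdkn1a. DESeq2 and a minimum of 10 counts in every library called 1 higher in adult mice, and leaving out libraries gave 0 to 1. Of the pathway lists, DESeq2 called 2 for the juvenile and 6 for the adult direction. The adult count was 0 with upper quartile scaling, limma voom, no filter on low counts and the 7 libraries, and 2 with the minimum of 10 counts. Leaving out libraries gave 0 to 1 and 0 to 2. Of the proliferation genes, DESeq2 called 7 and the 7 libraries 0 higher in adult mice, and leaving out libraries gave 0 to 4. Of the markers, 5 were called in the juvenile and 24 in the adult direction. The 7 libraries gave 3 and 6, limma voom 15 and the minimum of 10 counts 11 higher in adult mice, and leaving out libraries gave 3 to 6 and 17 to 28.

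Equal replicate numbers of the ages were only numbers, with correlations of -0.0318 to 0.0303 between their deviations from the age means over all genes. The replicate block gave 53 and 36 called genes, 0 members higher in juvenile mice, 0 pathway genes and 0 proliferation genes higher in adult mice, and 2 and 10 markers higher in juvenile and adult mice. It spends degrees of freedom on the numbers.

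With the length of the longest transcript, the mean share of Ccnd1 in juvenile mice was 40.5%, that of Ccnd3 in juvenile mice 26.2% and that of Cdkn1b in adult mice 3.27%. Without length, Ccnd1 had 32.7% and 35.8%, Ccnd2 45.4% and 19.4% in juvenile and adult mice, Ccnd3 had 21.8% in juvenile mice, and Cdk4 had 94.3% and 94.1%. The log2 fold change of Gsk3b turned to -0.064 with the replicate block and -0.14 with the 7 libraries, and it was -0.14 to 0.27 with each library left out. That of Myc was -0.47 to 0.028 and that of Rbbp4 -0.30 to 0.063, both turning without adult 4, and that of Trp53 was -0.015 to 0.57, turning without adult 3, with none of them called. By Spearman's rho, 4 of 20 most alike pairs were kept. The SEs of the log2 fold changes of the low genes Cdk6, Cdkn1b and Cdkn2c were 0.46 to 0.53, against 0.21 for Cdk4.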

Other observations

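The marker lists of the remaining cell types differed between the ages to unequal degrees. Calls are from edgeR's quasi-likelihood test with Benjamini-Hochberg adjustment. Macrophage markers summed to 304 to 408 CPM in juvenile and 735 to 1273.3 CPM in adult libraries without overlap, and 2 of 7 were called higher in adult mice. These were Csf1r, also made by osteoclast precursors, with 251 to 381 and 606 to 729 CPM, and Vcam1, also made by stromal cells, with 3.57 to 47.3 and 93.9 to 189 CPM, both named after their values were seen. The other 5 markers overlapped between the ages, and in adult 2 Adgre1, C1qc and Mrc1 were at 0. Adgre1, the F4/80 antigen, had 0 to 7.45 and 0 to 27.1 CPM, and C1qa, a complement subunit, had 0 to 9.01 and 0.167 to 107 CPM. Osteoclast markers summed to 12893.1 to 21147.8 and 16479.1 to 25579.0 CPM, with 2 of 7 called higher in adult mice. Of these, Acp5, the tartrate-resistant acid phosphatase, had 6436.9 to 8546.3 CPM in juvenile and 10919.4 to 16060.4 CPM in adult libraries, without overlap (log2 fold change -0.88, SE 0.14, edgeR's quasi-likelihood test, Benjamini-Hochberg adjusted p = 0.00626). Ctsk, the protease of the same cells, had 2074.7 to 4881.6 and 2174.2 to 4770.3 CPM.

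Chondrocyte markers had 2 of 6 tested genes called higher in adult mice, and megakaryocyte markers 1 of 3. Adipogenic stroma had 1 of 6 called in each direction, with sums of 257 to 394 CPM in juvenile and 306 to 1143.5 CPM in adult libraries. Endothelial markers had sums of 656 to 1047.3 and 794 to 959 CPM. Of the 10, 0 were called and 0 had an unadjusted p under 0.05. That level was reached by 2321 of all 13418 tested genes. For pericyte, osteocyte and B cell markers 0 of 6, 0 of 4 and 0 of 5 tested genes were called, and 2, 1 and 2 of them had an unadjusted p under 0.05. DESeq2 called 0, 1 and 2 of these, and limma voom 1, 1 and 0, while both called 0 endothelial markers. The pericyte sums were 383 to 533 and 367 to 636 CPM, the osteocyte sums 248 to 494 and 223 to 495 CPM, and the B cell sums 0 to 35.3 and 8.68 to 149 CPM.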
